A study of Homo sapiens with 4 samples.

Results

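The genes described here are 43 ligands and receptors of axon guidance, and the measurement is where full-length SOX2 and its isolated DNA-binding domain (SOX2-DBD) were found at them. A member's intervals are those of the SOX2 or SOX2-DBD peak list that overlap the gene body plus 10 kb either side (its window) by at least 1 bp, on hg19 with the genes of GENCODE release 44. The 43 genes were taken by name from 20136 protein-coding genes, and 309 of the 58827 distinct intervals of both lists lay in their windows. The samples were BJ fibroblasts, an established line of human foreskin fibroblasts, in which V5-tagged SOX2 or V5-tagged SOX2-DBD had been expressed ectopically for 48 h. V5 CUT&RUN, in which an antibody brings a nuclease to the tagged protein so that the DNA beneath it is cut free and sequenced, was done on 2 samples per group. All groups shared the cell line, the antibody and the time, and no group without a tagged protein was analysed here. The intervals are peak calls, so they hold no expression values and the cell type could not be checked against its marker genes.

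Growing axons are steered by secreted or membrane-bound ligands that attract or repel the growth cone. SLIT proteins signal through ROBO receptors, netrins through DCC, NEO1 and the UNC5 family, ephrins through EPH receptor tyrosine kinases, and semaphorins through plexins, with neuropilins as co-receptors for secreted class 3 semaphorins. The same families guide migrating cells and vessels outside the nervous system, and several are made by mesenchymal cells. SOX2 is a transcription factor of neural progenitors and pluripotent cells that binds short AT-rich sites through its high mobility group domain.

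Each group was represented by the list of its replicate 1, so no value below has an error between replicates and no test between the groups was possible. Confidence intervals are 95% intervals that cover counting error only. Sequencing depth is unknown. The SOX2 list held 57907 intervals, or 2.03 per 100 kb of determined genome, and the SOX2-DBD list 15220, or 0.532 per 100 kb. The lists had 14300 intervals in common with identical positions and signal values (shared). The other 43607 SOX2 intervals are called SOX2-only and the other 920 SOX2-DBD intervals SOX2-DBD-only. The labels do not say in which group a shared interval was measured. Another list, named as a down-sampled version of the SOX2 list, held 38291 intervals without signal values.

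SOX2 intervals were found at 28 of the 43 genes (65.1%), while 47.8% of all protein-coding genes had one. The 43 genes have longer windows than most, and at the shares of protein-coding genes in the same bands of window length 31.4 of them would have an interval, so the count of 28 is not an excess. SOX2-DBD intervals were found at 21 genes (48.8%), against 23.9% of protein-coding genes, and 15 genes had an interval in neither list. The SOX2-DBD shares make no allowance for window length. By density there was no excess, with 0.569 SOX2-DBD intervals per 100 kb at the 43 genes and 0.636 at other protein-coding genes. The windows held 308 SOX2 intervals, of which 225 were SOX2-only and 83 shared, and a single SOX2-DBD-only interval. Over 14.8 Mb of window this was 2.09 SOX2 intervals per 100 kb (1.86 to 2.33), or 1.03 times the density of the whole genome, whereas the windows of the other protein-coding genes held 2.59 per 100 kb (2.57 to 2.62). The intervals were spread unevenly. ROBO1, SLIT2, SEMA3A and SEMA5A together held 165 of the 308 (53.6%) in 18.04% of the summed window length.

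**Figure D1:**
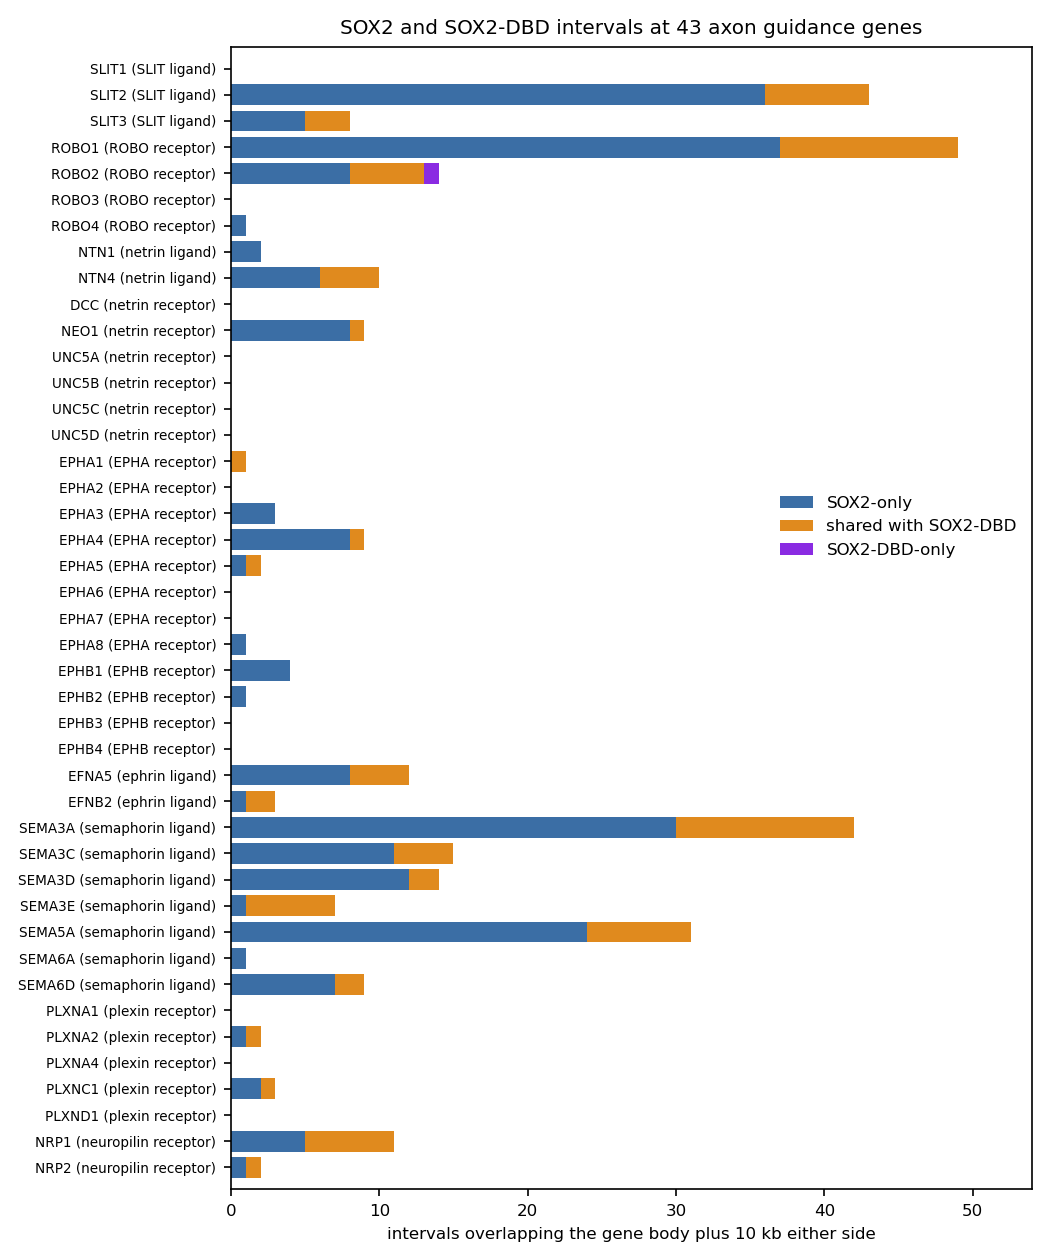
Number of SOX2-only, shared and SOX2-DBD-only intervals (x axis) in the gene body plus 10 kb either side of each of the 43 genes (y axis, with role). ROBO1, SLIT2 and SEMA3A hold 49, 43 and 42 SOX2 intervals, and 15 genes hold none.

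The following windows show the DNA under some of the intervals that the text returns to. These intervals had a high maximum signal or lay near an annotated start, and each printed window holds a motif match. Each is the 200 bp at the centre of an interval on the plus strand of hg19, in lower case. Capitals mark the SOX core motif (ACAAAG or ACAATG, or their reverse complements CTTTGT and CATTGT) and the AP-1 motif (TGACTCA or its reverse complement TGAGTCA). None of the windows overlapped an annotated exon. They are, in order, the shared intervals in introns of ROBO1 (chr3:79346527-79346726) and NTN4 (chr12:96168555-96168754), and the shared intervals near internal starts of NRP1 (chr10:33552996-33553195), SEMA3A (chr7:84001654-84001853) and PLXNA2 (chr1:208389566-208389765). The last is an intronic SEMA5A interval (chr5:9359390-9359589) that was SOX2-only.
ROBO1: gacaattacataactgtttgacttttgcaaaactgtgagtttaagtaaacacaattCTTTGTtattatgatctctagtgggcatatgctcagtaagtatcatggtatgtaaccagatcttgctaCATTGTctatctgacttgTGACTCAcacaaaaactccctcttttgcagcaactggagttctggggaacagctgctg
NTN4: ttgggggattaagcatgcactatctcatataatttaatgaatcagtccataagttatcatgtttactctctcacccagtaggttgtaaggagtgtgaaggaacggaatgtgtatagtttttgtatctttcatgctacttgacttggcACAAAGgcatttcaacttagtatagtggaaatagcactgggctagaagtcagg
NRP1: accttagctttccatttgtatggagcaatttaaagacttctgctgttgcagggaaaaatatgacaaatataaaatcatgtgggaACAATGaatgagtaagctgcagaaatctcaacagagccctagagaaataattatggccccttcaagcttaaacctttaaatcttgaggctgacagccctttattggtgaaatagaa
SEMA3A: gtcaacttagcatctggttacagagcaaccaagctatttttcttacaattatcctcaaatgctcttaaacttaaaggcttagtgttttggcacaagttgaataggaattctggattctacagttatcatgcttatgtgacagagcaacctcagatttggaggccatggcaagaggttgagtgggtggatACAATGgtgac
PLXNA2: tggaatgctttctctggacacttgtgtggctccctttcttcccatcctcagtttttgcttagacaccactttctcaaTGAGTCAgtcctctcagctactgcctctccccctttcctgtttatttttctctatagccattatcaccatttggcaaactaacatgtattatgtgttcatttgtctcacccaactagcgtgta
SEMA5A: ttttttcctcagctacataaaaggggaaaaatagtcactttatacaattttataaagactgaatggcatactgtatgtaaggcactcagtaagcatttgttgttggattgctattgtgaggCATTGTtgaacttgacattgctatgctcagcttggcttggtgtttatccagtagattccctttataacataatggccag
The ROBO1 window carried 2 SOX core matches and 1 AP-1 match. The NTN4, NRP1, SEMA3A and SEMA5A windows each carried 1 SOX core match, and the PLXNA2 window carried an AP-1 match and no SOX core match. A match describes the letters only. Windows without a match are not printed, among them those of 2 SEMA5A intervals with maximum signals of 24 (shared) and 23 (SOX2-only). The printed windows therefore do not show how often a motif occurs.

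Among the SLIT ligands, repellents that are cleaved from a large secreted precursor, SLIT2 stood apart from its paralogs. SLIT2 (chr4:20253528-20622184) held 43 SOX2 intervals, 7 of them shared, and 25 intervals in the down-sampled list. Its density of 11.1 per 100 kb (8.01 to 14.9) was the highest of the 43 genes and 5.46 times that of the genome. Of the 1168 protein-coding genes with windows of 200 to 400 kb, 0.771% had a density at least as high. SLIT3, with a gene body of 639 kb, held 8 SOX2 intervals, 3 of them shared, or 1.21 per 100 kb (0.524 to 2.39), an interval that does not overlap that of SLIT2. SLIT1 held no interval in any of the lists. A count of 0 in its 208 kb window allows up to 3 intervals, or 1.44 per 100 kb, which is 0.712 times the density of the genome.

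The ROBO receptors, immunoglobulin-type receptors for SLIT proteins, also differed between paralogs, by an amount that depends on the gene model. ROBO1 (chr3:78646389-79817148) held 49 SOX2 intervals, 12 of them shared, and 30 down-sampled intervals, the largest count of the 43 genes. In its window of 1191 kb this was 4.12 per 100 kb (3.04 to 5.44), or 2.03 times the density of the genome. ROBO2, its neighbour on chromosome 3, held 13 SOX2 intervals in 1763 kb, or 0.737 per 100 kb (0.393 to 1.26), below the interval of ROBO1. Over its canonical transcript plus 10 kb either side, a window of 629.9 kb that holds all 13, the density was 2.06 (1.10 to 3.53), which overlaps that of ROBO1, whose value does not change with the canonical transcript. ROBO2 also held the only SOX2-DBD-only interval of the 43 genes, at chr3:75995237-75995923 in an intron 39.7 kb from the 5′ end of the gene, with a SOX core match at its centre. SOX2-DBD-only intervals were found at 2.49% of protein-coding genes. ROBO3 had no interval, and ROBO4, a receptor of endothelial cells, had 1 SOX2-only interval 5.44 kb upstream of its start.

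Both netrin ligands listed had intervals, and most of the listed netrin receptors had none. NTN4, a netrin of basement membranes, held 10 SOX2 intervals, 4 of them shared, or 6.52 per 100 kb (3.13 to 11.99). NTN1, the classical attractant, held 2, both SOX2-only and in introns, or 0.825 per 100 kb (0.0999 to 2.98). NEO1, a broadly expressed relative of DCC, held 9 SOX2 intervals, 1 of them shared, or 3.29 per 100 kb (1.505 to 6.25). DCC itself and UNC5A, UNC5B, UNC5C and UNC5D held no interval in any list. DCC is the longest of the genes without an interval. Its window of 1216 kb would hold 24.6 SOX2 intervals at the density of the genome, and a count of 0 allows up to 0.247 per 100 kb. The corresponding limits were 0.516 per 100 kb at UNC5D and 0.738 per 100 kb at UNC5C, which are below the density of the genome. At UNC5A and UNC5B the windows were so short that the limits, 3.32 and 2.72 per 100 kb, lay above it, and a density equal to that of the genome would not have been distinguishable from none.

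EPH receptors were sparsely covered. The 8 EPHA receptors held 16 SOX2 intervals in 2.26 Mb, or 0.708 per 100 kb (0.405 to 1.15), and the 4 EPHB receptors held 5 in 0.801 Mb, or 0.624 per 100 kb (0.203 to 1.46). Of the 16 at EPHA receptors, 9 belonged to EPHA4, a receptor that binds ephrins of both classes. EPHA4 had 1 shared interval and a density of 5.11 per 100 kb (2.34 to 9.70). EPHA3 held 3 SOX2-only intervals, EPHA5 held 2 of which 1 was shared, EPHA8 held 1 SOX2-only interval in its downstream flank and EPHA1 held 1 shared interval in its upstream flank. EPHA2, EPHA6 and EPHA7 held none. The window of EPHA6 was 967 kb long and would hold 19.6 intervals at the density of the genome, and its limit was 0.310 per 100 kb. EPHB1 held 4 SOX2-only intervals and EPHB2 held 1, while EPHB3 and EPHB4 held none. No EPHB receptor had a SOX2-DBD interval.

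Both ephrin ligands listed had intervals, and the SOX2-DBD list included some of them. EFNA5, anchored to the membrane by a lipid, held 12 SOX2 intervals, 4 of them shared, or 3.82 per 100 kb (1.97 to 6.67). EFNB2, a transmembrane ephrin that also marks arterial endothelium, held 3 SOX2 intervals in introns, 2 of them shared. Its 4.55 per 100 kb has a wide interval (0.939 to 13.3) because the window is 65.9 kb long.

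All 7 semaphorins listed had SOX2 intervals, 119 in 2.57 Mb, or 4.64 per 100 kb (3.84 to 5.55). This does not extend to the whole family, since most of the further semaphorins named below held none. SEMA3A, a secreted repellent, held 42 SOX2 intervals, 12 of them shared, and 26 down-sampled intervals. Its density was 7.54 per 100 kb (5.44 to 10.2), and 4.19% of the 430 protein-coding genes with windows of 400 to 800 kb had a density at least as high. SEMA3C held 15 SOX2 intervals (4 shared), or 7.51 per 100 kb (4.201 to 12.4), and SEMA3D held 14 (2 shared), or 6.62 per 100 kb (3.62 to 11.1). SEMA3E held 7, or 2.29 per 100 kb (0.920 to 4.71), and 6 of these were shared. SEMA5A, a transmembrane semaphorin with thrombospondin repeats, held 31 (7 shared), or 5.84 per 100 kb (3.97 to 8.29). The transmembrane SEMA6D held 9 (2 shared) and SEMA6A a single SOX2-only interval 8.85 kb upstream of its start. The densities of SEMA3A, SEMA3C, SEMA3D and SEMA5A had overlapping intervals and were not distinguishable from each other.

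SEMA3C, SEMA3E, SEMA3A and SEMA3D lie in one stretch of chromosome 7 (chr7:80361854-84826372, the windows included). That stretch of 4.46 Mb held 213 SOX2 intervals, 46 of them shared, or 4.77 per 100 kb, which is 2.36 times the density of the genome. The 4 semaphorin windows, of 199.8, 305.9, 556.9 and 211.5 kb in the order named, accounted for 78 of the 213. The other intervals lay between these windows, which is the larger part of the stretch. The windows of SEMA3C, SEMA3A and SEMA3D, at 7.51, 7.54 and 6.62 per 100 kb, were denser than the whole stretch. That of SEMA3E, at 2.29 per 100 kb, was less dense.

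Plexins, the signalling receptors for semaphorins, had few intervals, and the neuropilin NRP1 had many. The 5 plexins held 5 SOX2 intervals in 1.11 Mb, or 0.449 per 100 kb (0.146 to 1.05). PLXNA2 held 2 of these, 1 of them shared. PLXNC1 held 3, 1 of them shared, and its interval in the downstream flank was centred in the neighbouring gene CEP83. PLXNA1, PLXNA4 and PLXND1 held none. The limit was 0.5501 per 100 kb at PLXNA4, with a window of 545 kb, but 4.02 at PLXNA1 and 4.198 at PLXND1. In 8 of the 15 genes without an interval (ROBO3, UNC5A, UNC5B, EPHA2, EPHB3, EPHB4, PLXNA1 and PLXND1) the limit lay above the density of the genome, so their counts of 0 are not distinguishable from it. NRP1, co-receptor for semaphorins and for vascular endothelial growth factor, held 11 SOX2 intervals, or 6.15 per 100 kb (3.07 to 11.01), of which 6 were shared. NRP2 held 2 in introns, 1 of them shared.

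Grouped by role, the 14 ligands held 197 SOX2 intervals in 4.598 Mb and the 29 receptors 111 in 10.2 Mb. The densities over summed windows were 4.28 per 100 kb (3.71 to 4.93) at ligands and 1.09 per 100 kb (0.898 to 1.31) at receptors, or 2.11 and 0.539 times that of the genome. They count SOX2 intervals as independent, although 4 genes held 165 of the 308. Over genes, the median was 4.19 per 100 kb (0.825 to 7.51) at ligands and 0.434 (0 to 1.47) at receptors. The confidence intervals of these medians overlap. Intervals were present at 13 of 14 ligands and at 15 of 29 receptors. The contrast covers only the genes listed here. The 33 further ligands and receptors described below held 0.925 SOX2 intervals per 100 kb (0.604 to 1.36) and were not summed by role. Members of one family or one locus share their surroundings. In the 1 Mb either side of the windows the median density was 2.575 per 100 kb for ligands and 1.65 for receptors. The order of the densities over summed windows did not rest on 1 gene. Without SLIT2 the ligands stood at 3.66 per 100 kb (3.10 to 4.28), and without ROBO1 the receptors stood at 0.690 (0.529 to 0.885). In the SOX2-DBD list the densities were 1.15 per 100 kb at ligands and 0.305 at receptors, which are 2.16 and 0.572 times the SOX2-DBD density of the genome.

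Of the genes, 10 had a SOX2 density of at least 2 times that of the genome, which is 23.3% of the 43 beside 19.9% of all protein-coding genes. They were SLIT2, SEMA3A, SEMA3C, SEMA3D, NTN4, NRP1, SEMA5A, EPHA4, EFNB2 and ROBO1. ROBO1 lay just inside that bound at 2.03 times and EFNA5 just outside at 1.89 times. At like window length the share was 0% of these genes against 13.0% below 50 kb. It was 16.7% against 22.3% at 50 to 100 kb and 44.4% against 33.9% at 100 to 200 kb. For 200 to 400 kb it was 18.2% against 36.4%, and for 400 to 800 kb 25% against 28.4%. For 800 kb and more it was 25% against 19.4%. The share was lower among the 43 in most bands, so the 23.3% is not read as an excess. For SOX2-DBD, without a comparison at like window length, the count was 10 genes beside 16.6% of all protein-coding genes. EFNA5, SEMA3E and EPHA1, the last with a single interval, were among these, while ROBO1, SEMA3D and EPHA4 were not.

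The median window of the 43 genes was 211.5 kb and that of all protein-coding genes 47.2 kb, so the genes were also set beside protein-coding genes of like window length. The share of genes with a SOX2 interval was lower among the 43 in 4 of 6 bands. It was 33.3% against 61.3% at 50 to 100 kb, 77.8% against 82.1% at 100 to 200 kb, 62.5% against 82.1% at 400 to 800 kb and 50% against 72.4% at 800 kb and more. It was higher below 50 kb, at 40% against 26.3%, and at 200 to 400 kb, at 90.9% against 86.8%. The median density of the 43 was 0.825 per 100 kb (0 to 2.29). For windows of 100 to 200 kb the median was 1.68 per 100 kb over 9 of these genes and 2.72 over 2815 protein-coding genes. For 200 to 400 kb it was 0.826 over 11 and 2.86 over 1168, for 400 to 800 kb 1.02 over 8 and 1.99 over 430, and for 800 kb and more 0.369 over 4 and 0.830 over 134. In windows of 50 to 100 kb the median was 0 over 6 and 1.57 over 4966, and below 50 kb it was 0 in both. Of the 134 protein-coding genes of 800 kb and more, 27.6% had no SOX2 interval, as did DCC and EPHA6.

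**Figure D2:**
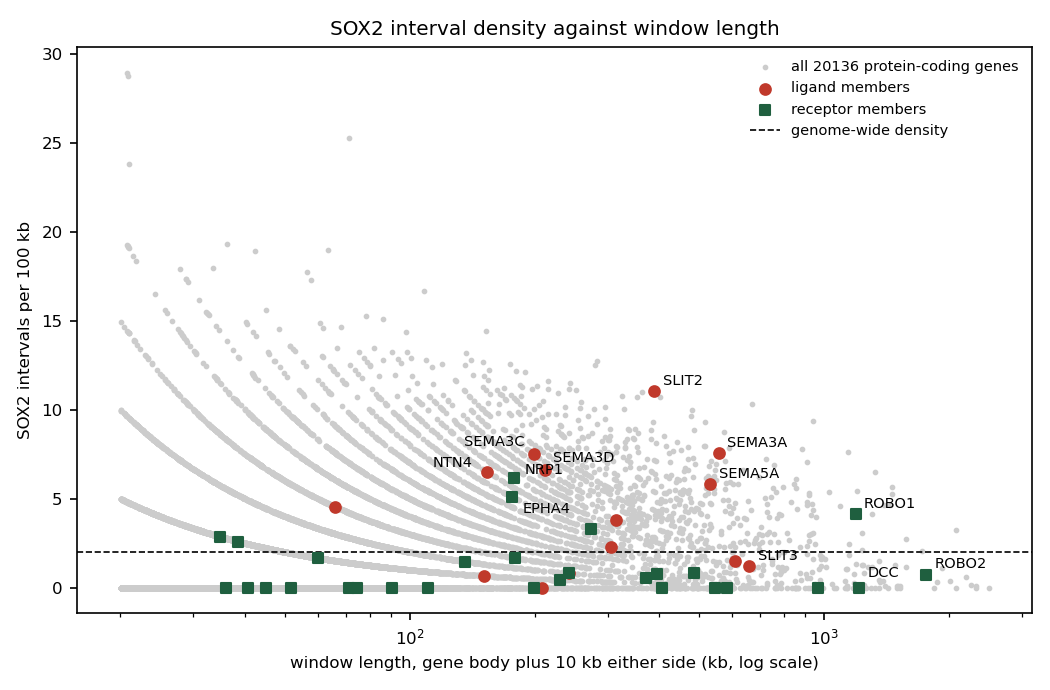
SOX2 intervals per 100 kb (y axis) against window length in kb (x axis, log scale) for ligands (circles), receptors (squares) and 20136 protein-coding genes (grey). The dashed line is the density of the genome, 2.03 per 100 kb. SLIT2 stands at 11.1 per 100 kb and DCC at 0.

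Within the genes, nearly all intervals were intronic. Shares by position were counted at the 43 genes only, whose windows are long, and are not read as particular to them. Of the 308 SOX2 intervals, 281 (91.2%, Wilson interval 87.5 to 93.9) were centred in an intron, 1 in an exon, 6 in an upstream and 12 in a downstream flank. Another 8 (2.60%, 1.32 to 5.04) were centred within 1 kb of an annotated transcript start, in 6 genes. Shared intervals made up 6 of these 8, that is 7.23% (3.36 to 14.9) of shared and 0.889% (0.244 to 3.18) of SOX2-only intervals. The 6 include a neighbouring pair in EFNA5 and another in NRP1, and shared intervals can be parts of wider ones, as described below. They are therefore not independent counts, and the difference between the classes is not read further. None of the 308 lay within 1 kb of the 5′ end of the gene record. By gene this was 0 of 43, beside 1.69% of protein-coding genes. At so low a share, 0 of 43 is not read as a lack. The 8 therefore lay at internal or alternative starts. They were 2 in NRP1, 2 in EFNA5 and 1 each in SEMA3A, SEMA3E, SEMA5A and PLXNA2. The nearest interval to a 5′ end was 1.34 kb away, in SEMA3A.

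**Figure D3:**
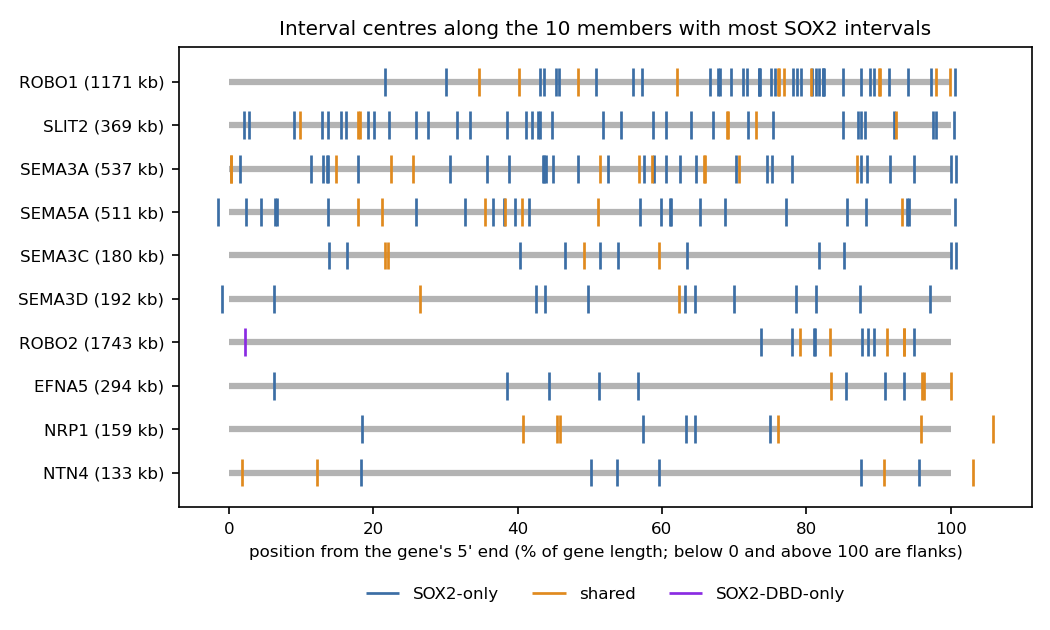
Centres of SOX2-only, shared and SOX2-DBD-only intervals (vertical ticks) along the 10 genes with most SOX2 intervals (y axis, with gene length), as a percentage of gene length from the 5′ end (x axis). In ROBO2 the 13 SOX2 intervals lie in the 3′ part of the gene and the SOX2-DBD-only interval lies near the 5′ end.

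The intervals were not evenly placed along ROBO1 and ROBO2. When each gene was cut into 3 equal parts, ROBO1 had 2 intervals in the 5′ part, 11 in the middle and 35 in the 3′ part, that is 0.512, 2.82 and 8.97 per 100 kb. The 252.6 kb from its 5′ end were free of SOX2 intervals. In ROBO2 all 13 lay in the 3′ part, and 1284 kb from the 5′ end were free of them. The Ensembl canonical transcript of ROBO2 begins 1133 kb from the 5′ end of the gene record, and all 13 lay downstream of that start. SLIT2 had 16, 12 and 14 intervals in its 3 parts, with a median spacing of 6.81 kb and no stretch longer than 35.6 kb without one. SEMA3A had 12, 18 and 10, SEMA5A 9, 13 and 7, and NTN4 and NEO1 3 in each part. The canonical transcript of SEMA3A begins 297.9 kb from the 5′ end of the gene record, and 21 of its 42 SOX2 intervals lay upstream of that start. In SEMA6D all 9 lay upstream of the canonical start, which is 533 kb from the 5′ end of the gene record, and the canonical transcript plus 10 kb either side held 0.

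The density of a gene was set beside that of the 1 Mb on either side of its window. Across the 43 genes Pearson's coefficient was 0.592 and Spearman's 0.564, as a description, since neighbouring genes share surroundings. SEMA3C, SEMA3E and SEMA3D had the highest surrounding densities, 5.25, 4.75 and 4.70 per 100 kb. ROBO1 was denser than its surroundings, at 4.12 against 0.95 per 100 kb, as was SLIT2 at 11.1 against 3.05. The reverse held for PLXNA4, with 0 against 2.95, SLIT1, with 0 against 2.65, and UNC5C, with 0 against 2.3. EPHA7 and UNC5D lay in surroundings that were themselves nearly empty, with 0 and 0.05 per 100 kb. GC content of the window was also related to density (Pearson -0.446, Spearman -0.399, n = 43). It was 34.4% to 41.4% in the 10 genes at 2 times the density of the genome or more. Of the 15 genes without an interval, 10 had a GC content above 45%, but DCC, EPHA6, EPHA7, UNC5C and UNC5D had 37.0%, 35.4%, 33.5%, 37.5% and 38.6%. Window length was nearly unrelated to density (Pearson 0.109, Spearman 0.101). The part of GC content in the densities was not tested.

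**Figure D4:**
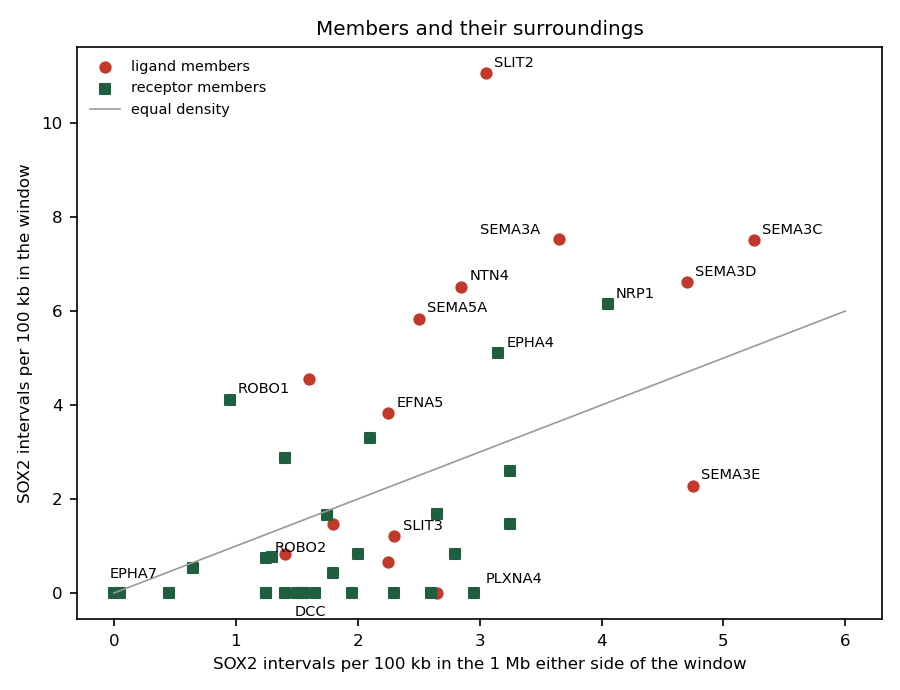
SOX2 intervals per 100 kb in each gene's window (y axis) against the density in the 1 Mb either side of it (x axis), for ligands (circles) and receptors (squares). The line marks equal density. SLIT2 and ROBO1 lie above it, and PLXNA4 lies at 0 beside 2.95 per 100 kb.

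Shared intervals made up 26.9% (Wilson interval 22.3 to 32.2) of the SOX2 intervals at the 43 genes, and 23.3% of the 38865 at other protein-coding genes, a value inside that interval. The share varied between genes with at least 5 SOX2 intervals. It was highest in SEMA3E, at 6 of 7 (85.7%, 48.7 to 97.4), followed by NRP1 at 6 of 11 (54.5%, 28.0 to 78.7), NTN4 at 4 of 10, ROBO2 at 5 of 13 and SLIT3 at 3 of 8. SLIT2, with 7 of 43 (16.3%, 8.12 to 30.0), was among the lowest, and its interval did not overlap that of SEMA3E. These genes were picked from the ends of the range, so that lack of overlap is not read as a difference. Shared intervals can also be parts of wider ones, as described below, so the 6 in SEMA3E may not be independent. Ligands and receptors had nearly the same share, 26.9% (21.2 to 33.5) and 27.0% (19.6 to 35.95). Of the 308 SOX2 intervals, 187 (60.7%, 55.2 to 66.0) overlapped the down-sampled list, beside 64.3% at other protein-coding genes. No gene had an interval in the down-sampled list without having one in the full list.

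Signal was used only to describe intervals within a list, since its normalization is not stated. The maximum signal, in the authors' units, ranged from 4 to 23 with a median of 10 in SOX2-only intervals and from 5 to 25 with a median of 11 in shared ones. At other protein-coding genes the medians were also 10 and 11. The highest maximum, 25, belonged to the shared interval chr3:79346317-79346936 in an intron of ROBO1, whose central window was printed above. The shared intervals that followed were in introns of SEMA5A (24, chr5:9069584-9070082), NTN4 (19, chr12:96168385-96168924), ROBO1 (18, chr3:79249778-79250385) and near an internal start of NRP1 (18, chr10:33552186-33552550). Among SOX2-only intervals the highest were in introns of SEMA5A (23, chr5:9523159-9523809, and 21, chr5:9359165-9359815), SEMA3C (19, chr7:80454539-80455107), NRP1 (18, chr10:33505663-33506440) and ROBO2 (18, chr3:77370735-77371215). Across genes the median maximum was 10 in SLIT2, 10 in ROBO1 and 9.5 in SEMA3A, beside 13 in SLIT3 and 13 in NRP1. The median widths were 335 bp for shared and 558 bp for SOX2-only intervals (quartiles 191.5 and 467, and 424 and 763), but the widths of the classes cannot be compared. In 29 of the 83 shared intervals the total signal was more than the width times the maximum, and in 21 the stated position of the maximum lay outside the interval, so their signal values belong to wider stretches than the rows give. This held for 0 of the 225 SOX2-only intervals. Among all 14300 shared intervals, the total exceeded that product in 3303 (23.1%), beside 34.9% of the 83. The maximum lay outside the interval in 2715 (19.0%), beside 25.3% of the 83. Such rows are therefore not particular to these genes, and the higher shares among the 83 were not tested. Pairs of neighbouring shared intervals in SLIT2, ROBO2 and SEMA3A, 6 intervals in all, carried identical signal values. Shared intervals can therefore be parts of wider ones, which also bears on their counts, their maxima and the centres of their motif windows. In the 5 shared intervals of highest maximum, and in those whose sequence was printed, the maximum lay inside the interval.

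The SOX core motif was present in the central 200 bp of 144 of the 308 SOX2 intervals (46.8%, 41.3 to 52.3) and in 25.3% of windows of the same size 10 kb downstream. At other protein-coding genes it was present in 47.0% of the SOX2 intervals, and in 27.2% downstream. By class it was found in 44.4% (38.1 to 51.0) of SOX2-only and 53.0% (42.4 to 63.4) of shared windows, intervals that overlap. Downstream the shares by class were 22.2% and 33.7%. The AP-1 motif, bound by FOS and JUN proteins, was present in 5.78% (3.41 to 9.63) of SOX2-only and 20.5% (13.2 to 30.4) of shared windows. These intervals do not overlap, but they do with 100-bp windows (1.52 to 6.28 and 5.81 to 19.3), with the upper 50% of each list by total signal (2.85 to 11.6 and 7.87 to 31.9) and without ROBO1, SLIT2, SEMA3A and SEMA5A (1.60 to 10.03 and 6.26 to 26.2). The values at other protein-coding genes were 6.45% and 16.4%, both inside those intervals. The downstream 4.44% also lay inside the interval of the SOX2-only windows (3.41 to 9.63). Individual genes had too few shared intervals for a share of their own. Over both classes, 9.74% of the 308 intervals had an AP-1 match. It was found at 7 of 42 intervals of SEMA3A, 5 of 43 of SLIT2, 5 of 49 of ROBO1 and 3 of 31 of SEMA5A. None of the 12 intervals of EFNA5, the 10 of NTN4 or the 14 of SEMA3D had one. Such counts are too small to set these genes apart from the 9.74%.

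**Figure D5:**
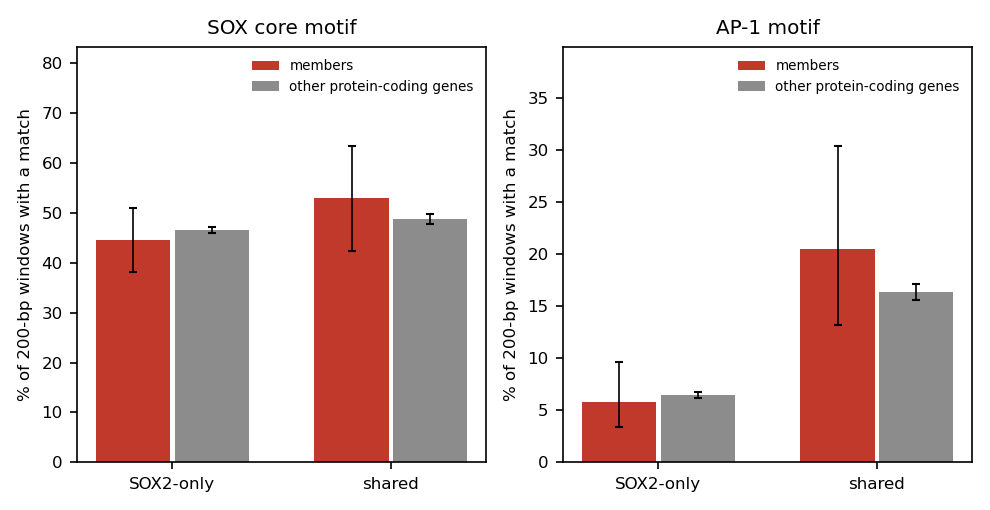
Percentage of 200-bp windows at interval centres with the SOX core motif (left) and the AP-1 motif (right), in SOX2-only and shared intervals at the 43 genes and at other protein-coding genes. Bars are shares and lines are Wilson 95% intervals. For AP-1 the shares are 5.78% and 20.5% at the 43 genes.

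The remaining ligands and receptors of these families and the intracellular transducers were also counted. Of 33 further ligands and receptors, 10 (30.3%) had a SOX2 interval and 2 a SOX2-DBD interval, with 26 SOX2 intervals in 2.81 Mb, or 0.925 per 100 kb (0.604 to 1.36). These genes are short, with a median window of 44.7 kb. NTNG1, a membrane-anchored netrin, held 13 of the 26, or 3.56 per 100 kb, and RGMB, a ligand of NEO1, held 4, or 8.001 per 100 kb. DSCAM, another netrin receptor, held none, as did the 4 further plexins. The same was true of the ligands NTN3, NTN5, NTNG2, EFNA2, EFNA4, EFNB1 and EFNB3. Among semaphorins it held for SEMA3B, SEMA3F, SEMA3G, SEMA4A, SEMA4B, SEMA4C, SEMA6B, SEMA6C and SEMA7A. SEMA4D, SEMA4F, SEMA4G and SEMA5B held 1 each. Of 30 intracellular transducers, 20 (66.7%) had a SOX2 interval, with 178 in 5.33 Mb, or 3.34 per 100 kb (2.87 to 3.87). They were led by SRGAP1, which acts downstream of ROBO receptors, with 25, ABLIM1 with 24, the actin regulator ENAH with 21, PTK2 (focal adhesion kinase) with 21 and the kinase ROCK2 with 19.

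Beside these, the 34 cadherins and non-clustered protocadherins, also adhesion genes of neurons, held 0.957 SOX2 intervals per 100 kb (0.783 to 1.16) and had one at 16 genes. The 44 collagen genes held 2.58 per 100 kb (2.23 to 2.97) and had one at 31. The density of the guidance genes, 2.09 per 100 kb (1.86 to 2.33), lay above that of the cadherins, and its interval overlapped that of the collagens. Without ROBO1, SLIT2, SEMA3A and SEMA5A it was 1.18 (0.996 to 1.39), which overlaps the interval of the cadherins. At like window length the order of the medians turned in 2 bands, with 3.78 per 100 kb at 3 cadherins against 0 at 50 to 100 kb and 4.41 at 4 cadherins against 0.826 at 200 to 400 kb.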

How the data were processed

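CUT&RUN against V5 was done on 2 samples per group, and the peak lists of replicate 1 were used. Whether the authors called peaks per sample or on pooled samples is not given in the sources used here. The submitters' processing notes name hg19, Bowtie2 2.3.4.1, SAMtools, bedtools 2.27.1, SEACR 1.3 and deepTools 3.5.0, without roles. The deposited total and maximum signal per interval are the authors' values, with normalization not stated. Depth is unknown.

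Exact duplicate rows (1654 in each of the SOX2 and SOX2-DBD lists) were counted once. No interval passed a chromosome end of GRCh37. A density is the number of intervals per 100 kb of window, with an exact Poisson interval. Shares carry Wilson 95% intervals. Motifs were sought on both strands in 200-bp windows. Named genes were the 10 with most SOX2 intervals, the 5 of highest density, the 5 of highest shared percentage among genes with at least 5 intervals, and all with a SOX2-DBD-only interval or none. Named intervals were the 5 of highest maximum signal per class, SOX2-DBD-only ones, those with a seventh-column value of at least 3 (there were none) and those near starts. The genes and lists were chosen with earlier results of these data known. The code was tested on simulated data: interval counts were equal to brute force in 500 of 500 gene windows checked, and 500 of 500 planted motifs were found. Sequences were read with pyfaidx 0.9.0.4 and samtools 1.23.1, intervals were computed with scipy 1.17.1, and tables and plots were made with pandas 2.3.3, numpy 2.4.6 and matplotlib 3.10.9 under Python 3.11.15. Alternatives are listed in the closing section.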

Additional observations from a re-analysis of the deposited data

Results flagged for a closer look

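The seventh column of the SOX2 list, whose meaning is not stated and which enters no comparison above, drew attention as a signal outside the main measurement. Of the 83 shared intervals at the 43 genes, 25 (30.1%, Wilson 95% interval 21.3 to 40.7) had a value of at least 1, beside 34.8% of the shared intervals at other protein-coding genes, a value inside that interval. SEMA3A had 4 of the 25, ROBO1 and NRP1 3 each, and EFNA5, NTN4, SEMA3D, SEMA3E and SEMA5A 2 each.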

How the results depend on the processing

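Of 187 values recomputed under other settings, 158 stayed within 1.5 times the reported count or within the reported counting interval, and 29 did not. With the upper 50% of each list by total signal, which removes intervals by construction, there were 156 SOX2 and 36 SOX2-DBD intervals, 12 genes with a SOX2-DBD interval, 0 SOX2-DBD-only intervals, and densities of 1.06 per 100 kb over the 43 genes, 2.13 at ligands and 0.570 at receptors. The down-sampled list, also shorter, gave 193 intervals, 32 SOX2-DBD intervals without a partner, and 1.31, 2.63 and 0.708 per 100 kb. Without ROBO1, SLIT2, SEMA3A and SEMA5A, a setting added after the data were seen, there were 143 SOX2 and 46 SOX2-DBD intervals, 6 genes at 2 times the density of the genome, and 1.18, 2.59 and 0.690 per 100 kb. Without the 5 longest genes (ROBO2, DCC, ROBO1, EPHA6 and SLIT3) the density was 2.65 per 100 kb and no SOX2-DBD-only interval was left (0). The count of SOX2-DBD-only intervals was 3 with 50 kb flanks and 0 with the span of the canonical transcript, which gave 2.06 per 100 kb at ROBO2 and 0 at SEMA6D. Windows of 100 bp gave the SOX core motif in 24.7%, and AP-1 in 3.11% of SOX2-only and 10.8% of shared intervals, whose counting intervals then overlapped, and a longer SOX motif (2 bases of A or T, then CAAAGG or CAATGG) gave 13.6%. A distance of 5 kb to a start gave 9.42%. Over summed windows, the listed ligands were denser than the listed receptors under each of these settings run for them. All of those runs were added after the data were seen. The down-sampled list in place of the full one was not run for the share of intervals found in it. No paired analysis was possible because the lists of replicate 1 alone were analysed, so no replicate could be left out. The unknown depth limits the reading of genes without an interval.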
